A study of Mus musculus with 8 samples.

Results

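Control hepatocyte differentiation was described by comparing RNA of control iHPs, hepatocytes differentiated *in vitro* from hepatoblasts, with RNA of control iHBs, the cultured hepatoblasts they came from. The members were the 2 libraries labelled con_HB and con_HP, of 8 libraries in all, and genes were counted as measured when their level averaged 1 RPKM or more over both, which gave 13469 of 23467 genes. RPKM is the number of reads of a gene scaled to the length of the gene and to the reads of the library. Both libraries were from cells of wild type mice on a B6;129 mixed background, taken from livers at E14.5 and cultured on collagen-coated plates. The iHPs had been treated with oncostatin M at 12.5 ng/ml for 5 days by the labels, whereas the methods of the study give a different length, and the medium held dexamethasone, insulin and growth factors for all cells. How long the iHBs had been cultured is not given in the sources used here, so time in culture and oncostatin M cannot be told apart. The other libraries were 1 of control BECs differentiated on Matrigel for 14 days (iBEC) and 5 of cells labelled Lats1-/-; Lats2f/fl; Alb-cre (L1L2_Alb), in which the Cre is driven by the albumin promoter in the hepatoblast lineage.

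Hepatoblasts are the bipotent progenitors of the fetal liver, and give rise to hepatocytes or to the biliary epithelial cells that line bile ducts. Oncostatin M is a cytokine of the IL-6 family, which binds a receptor made of OSMR and gp130 and signals through JAK kinases to STAT3. It is made by blood cells of the fetal liver, and is used with dexamethasone to mature hepatoblasts in culture. Among the best known targets of STAT3 in hepatocytes are the acute-phase genes, which code for plasma proteins that the liver secretes in inflammation.

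There was 1 control library a side, so no test of the difference was made, and the differences below describe these 2 libraries. They are given as log2(RPKM + 1) in iHP minus iHB, with at least 2-fold (1 on this scale) as the size for calling a gene higher or lower. Of 13469 genes, 259 (1.92%) were higher and 246 (1.83%) were lower in iHP, and 61 of the former and 17 of the latter were at least 4-fold apart. The median of all genes was -0.18, and percentiles 5 and 95 were -0.74 and 0.46. Upper-quartile scaling moved it to -0.01 and gave 317 higher and 150 lower genes, so the split between higher and lower depends on the scaling, and list medians are to be read against -0.18. The spread between libraries of a condition could be seen only in the L1L2_Alb cells, where 12.7% of 12680 genes were 2-fold apart between the 2 iHP libraries and 5.35% of 13430 genes between the 2 iBEC libraries. Both shares exceeded that between control iHB and iHP, where the median absolute difference was 0.24, against 0.44 and 0.25 in the pairs. Of the genes called, 206 of the 259 higher and 196 of the 246 lower were further apart than that gene was in either pair.

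Depth was close between the libraries, with 28460336 reads in iHB and 27991895 reads in iHP, and these reads could be recovered gene by gene for 219 of the higher and 205 of the lower genes. The 219 higher genes held 2.6% of all reads in iHB and 9.99% in iHP, while the 205 lower genes held 1.40% and 0.535%. Both libraries also held RNA of *Xist*, made in female cells, at 30.9 and 28.5 RPKM, and of the Y-linked *Ddx3y* at 14.8 and 14.3 RPKM. The L1L2_Alb iHP pair was not matched in this way, since *Xist* was at 34.1 and 0.0602 RPKM and *Ddx3y* at 0 and 28.1 RPKM. L1L2_Alb iHB had *Xist* at 21.5 RPKM and *Ddx3y* at 0 RPKM, so it was like iHP replicate 1 and unlike replicate 2.

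**Figure D1:**
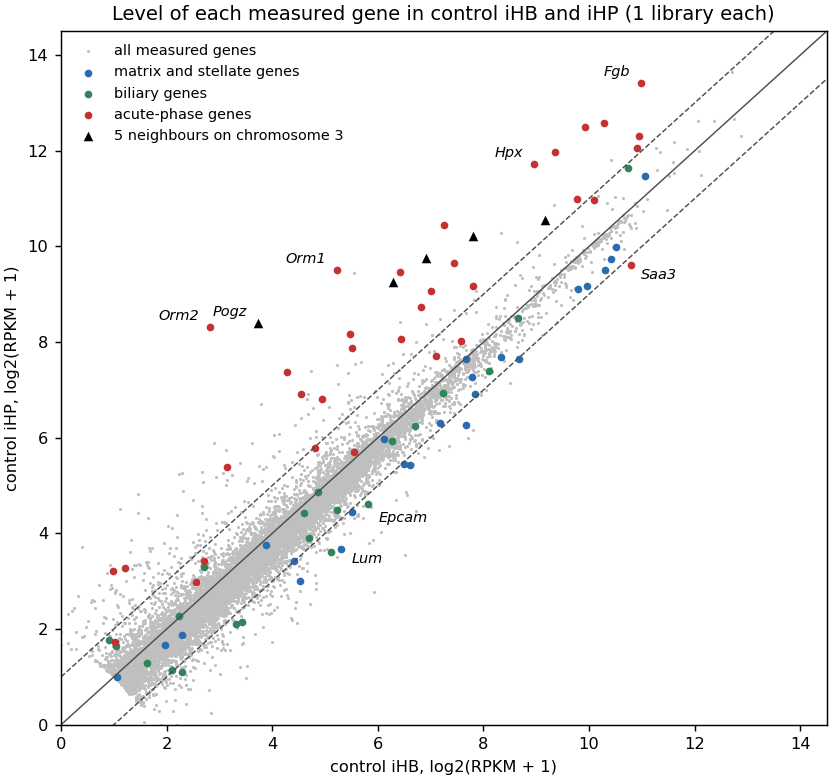
Level of each of 13469 measured genes in control iHB (x axis) and control iHP (y axis), both as log2(RPKM + 1), 1 library each. The solid line marks equal levels and the dashed lines 2-fold differences. Red acute-phase genes lie above the upper dashed line except for 9 of 34, and *Saa3* lies below the lower one.

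Defining RNAs of the hepatoblast lineage were abundant in both libraries. *Alb*, which codes for albumin, was at 2485 RPKM in iHB and 3088 RPKM in iHP. *Afp*, the fetal counterpart of albumin, was at 3687 and 4219 RPKM, and *Hnf4a*, the nuclear receptor that sets up the hepatocyte programme, was at 48.4 and 64.4 RPKM. None of these differed by 2-fold. The cultures also held RNA of other cells: *S100a9* of neutrophils was at 7494 and 5040 RPKM, and *Lyz2* of macrophages and neutrophils at 1622 and 990 RPKM. *Col1a1* of fibroblasts and stellate cells was at 1467 and 1017 RPKM, and *Msln* of mesothelium at 261 and 255 RPKM. Haemoglobin was low, with *Hba-a1* at 67.1 and 48.3 RPKM, although its reads cannot be told from those of the near-identical *Hba-a2*. Of 13 endothelial genes 5 were measured, at low levels, the highest being *Egfl7* at 7.85 and 9.14 RPKM and *Pecam1* at 4.01 and 4.18 RPKM, while the defining *Cdh5* and *Kdr* were below 1 RPKM in both. In such mixed RNA, fewer cells of a type and less RNA per cell cannot be told apart.

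Of the 37 gene lists described, acute-phase genes had the largest share of increases. Of 34 measured members 25 were higher in iHP and 1 was lower, beside 1.92% and 1.83% of all genes, and the median was 2.05 (2.22 after upper-quartile scaling). Summed over the list, the level went from 14591 RPKM in iHB to 51860 RPKM in iHP, and the 29 members with recovered reads went from 1.83% to 7.05% of all reads. Abundant RNAs were among them, such as those of fibrinogen, the precursor of the clot. *Fgb*, the fibrinogen beta chain, was at 2030 RPKM in iHB and 10898 RPKM in iHP. Its neighbours *Fga* and *Fgg*, for the alpha and gamma chains, went from 655 to 4053 RPKM and from 970 to 5813 RPKM. The 3 chains are assembled into 1 protein, and their log2 differences lay together between 2.42 and 2.63.

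The largest difference of any gene was that of *Orm2*, for an orosomucoid that binds drugs and steroids in plasma, at 6.04 RPKM in iHB and 318 RPKM in iHP. This was 133 reads against 6887, a ratio of 52.6 with an exact 95% interval of 44.3 to 63.0 that covers counting error only. *Orm1* was at 36.4 and 729 RPKM and *Orm3* at 1.32 and 8.64 RPKM, and since the 3 genes are close copies, reads may be split between them. The antiprotease *Serpina3n* went from 151 to 1398 RPKM and *A2m*, for alpha-2-macroglobulin, from 18.5 to 166 RPKM. *Hpx*, for hemopexin, which carries free heme, went from 499 to 3390 RPKM, and *Hp*, for haptoglobin, which binds free haemoglobin, from 1240 to 6160 RPKM. *Crp*, a minor acute-phase protein of mice, was at 22.3 and 120 RPKM, and *Itih4* at 44.8 and 234 RPKM. *Hamp*, for the iron hormone hepcidin and a known STAT3 target, was at 112 and 425 RPKM. The metallothioneins *Mt2* and *Mt1* more than doubled from an already high level, at 1973 and 5097 RPKM and at 1912 and 4285 RPKM, but *Mt2* differed more (1.92) between the 2 L1L2_Alb iHP libraries than here (1.37).

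Serum amyloid A genes differed among themselves. *Saa3*, which in mice is made by macrophages and many epithelia, was at 1766 RPKM in iHB and 787 RPKM in iHP, the only member that was lower, and 0 members were 2-fold lower after upper-quartile scaling. *Saa1* and *Saa2*, the main inflammatory forms from liver, were low, at 0.984 and 8.24 RPKM and at 1.04 and 2.34 RPKM, whereas control iBEC had them at 2472 and 1871 RPKM. In the L1L2_Alb iBEC pair *Saa1* and *Saa3* were 5.42 and 2.45 apart on the log2 scale, so these 2 genes varied between libraries of a condition by more than between control iHB and iHP. The same held for *Orm3*, *Steap4*, *C4b* and *Mt2*, and the other 20 of the 26 acute-phase genes called were further apart than in either pair. Members that stayed within 2-fold included *Lcn2* (1093 and 2011 RPKM), *Lbp* (137 and 208 RPKM), *Cfb* (190 and 258 RPKM) and *Agt* (45.6 and 51.1 RPKM).

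**Figure D2:**
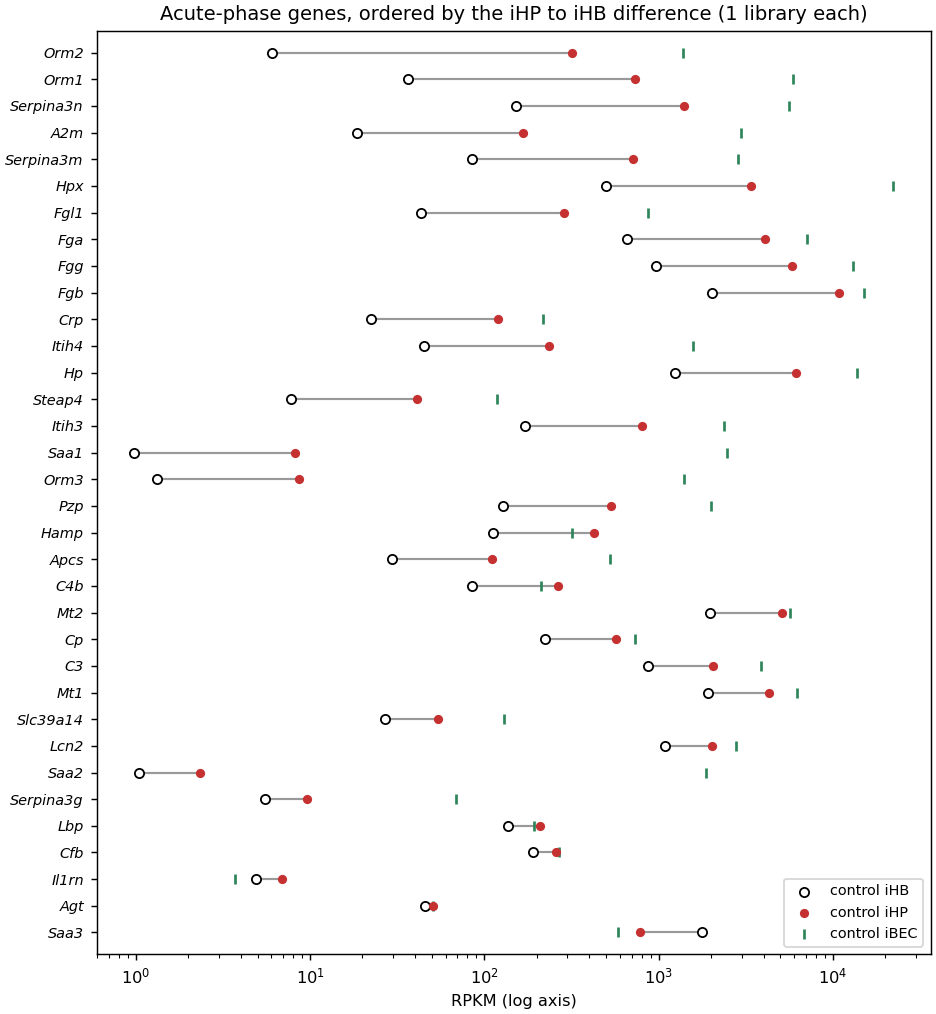
RPKM (log axis) of the 34 measured acute-phase genes in control iHB (open circles), control iHP (red) and control iBEC (green bars), 1 library each, ordered by the iHP to iHB difference. The lines run to the right for all genes but *Saa3*, and for 28 of them the iBEC level lies above that of iHP.

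The control iBEC library was no low reference for these genes. *Hpx* was at 22015 RPKM and *Orm1* at 5934 RPKM in iBEC, above iHP, and *Alb* was at 6162 RPKM. *Krt19*, a keratin of bile duct cells, was at 83.7 RPKM in iBEC against 273 RPKM in iHB and 168 RPKM in iHP. Of the 34 acute-phase genes 28 were higher in iBEC than in iHP, as single libraries.

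Promoters of acute-phase genes were searched for the STAT motif TTCNNNGAA, which reads the same on both strands, in the 250 bases before and 50 bases after each start site (RefSeq, GRCm38.p6). It was found in 8 of 25 acute-phase genes that had a window (32.0%), against 8.37% of 9677 measured genes with a window and 8.30% of all 32851 windows. Among genes with a window, it was in 18.7% of the 182 higher genes and in 6.45% of the 155 lower genes. The higher genes include acute-phase genes, so their share is not separate from that of the acute-phase list. Of 25 measured oncostatin M pathway genes with a window, 3 had the motif. Of 18 acute-phase and oncostatin M pathway genes that were at least 4-fold higher in iHP 13 had a window and 4 of these had it, and their windows are shown because STAT3 is the factor that oncostatin M activates. A match is a description and not a site of binding. The windows run 5′ to 3′ on the strand of the gene with the motif in capitals. They lie at chr3:83025903-83026202 on the + strand for *Fga* (motif 234 bases before the start), chr3:83049814-83050113 on the - strand for *Fgb* (162 bases before), chr14:30886226-30886525 on the + strand for *Itih4* (51 bases before) and chr5:7960222-7960521 on the + strand for *Steap4* (116 bases before).
Fga: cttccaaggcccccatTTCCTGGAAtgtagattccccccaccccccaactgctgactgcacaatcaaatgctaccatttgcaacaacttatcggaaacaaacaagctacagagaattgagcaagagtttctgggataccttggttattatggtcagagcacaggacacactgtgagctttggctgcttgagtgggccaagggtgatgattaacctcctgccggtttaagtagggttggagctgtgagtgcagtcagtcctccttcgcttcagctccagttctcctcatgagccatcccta
Fgb: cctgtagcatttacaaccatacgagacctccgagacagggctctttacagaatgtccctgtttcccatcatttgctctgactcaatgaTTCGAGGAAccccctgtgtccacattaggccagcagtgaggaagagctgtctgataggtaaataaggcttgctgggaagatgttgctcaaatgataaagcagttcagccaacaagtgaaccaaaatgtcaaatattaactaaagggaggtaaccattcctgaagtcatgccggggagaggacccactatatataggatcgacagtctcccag
Itih4: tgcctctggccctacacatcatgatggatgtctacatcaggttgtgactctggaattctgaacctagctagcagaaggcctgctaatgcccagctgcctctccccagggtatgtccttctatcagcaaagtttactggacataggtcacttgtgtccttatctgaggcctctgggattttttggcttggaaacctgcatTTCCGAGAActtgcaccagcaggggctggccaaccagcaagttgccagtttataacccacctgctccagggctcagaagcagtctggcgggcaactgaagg
Steap4: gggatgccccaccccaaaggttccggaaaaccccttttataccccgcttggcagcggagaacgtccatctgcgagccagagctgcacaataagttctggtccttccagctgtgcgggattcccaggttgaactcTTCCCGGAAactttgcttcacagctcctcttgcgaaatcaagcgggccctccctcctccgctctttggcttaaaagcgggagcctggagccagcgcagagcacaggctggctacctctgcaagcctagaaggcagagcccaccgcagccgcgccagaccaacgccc

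Of 29 measured genes of the oncostatin M and IL-6 pathway 2 were higher and none was lower in iHP, with a median of -0.05 that turned to 0.13 after upper-quartile scaling. *Socs3*, the feedback inhibitor that STAT3 induces, was at 27.5 RPKM in iHB and 63.7 RPKM in iHP. *Timp1*, an inhibitor of matrix proteases known as an oncostatin M target, was at 224 and 469 RPKM. The receptor subunit *Osmr* was at 14.2 and 26.8 RPKM, just under the 2-fold size (0.87, and 1.06 after upper-quartile scaling), and *Il6st*, for gp130, was at 48.6 and 74.5 RPKM. *Stat3* itself was at 72.0 and 75.9 RPKM and *Jak1* at 55.9 and 56.1 RPKM. *Cish* and *Socs2*, feedback genes of STAT5, were at 13.2 and 8.93 RPKM and at 3.06 and 1.90 RPKM. The mouse gene for the ligand, *Osm*, was at 2.01 and 1.78 RPKM. Control iBEC, which was not treated with oncostatin M, held *Socs3* at 115 RPKM, *Timp1* at 1268 RPKM and *Osmr* at 33.7 RPKM, above iHP. *Stat3* was also higher in iBEC, at 82.0 RPKM, while *Il6st* (62.9 RPKM) and *Jak1* (50.6 RPKM) were lower than in iHP. The part of oncostatin M in these differences was not tested.

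Other plasma proteins of hepatocytes were higher with less uniformity. Of 30 measured carriers, apolipoproteins and antiproteases 14 were higher and none was lower, with a median of 0.91. *Apoc3*, which slows the clearance of triglyceride, was at 25.7 RPKM in iHB and 167 RPKM in iHP, and *Apoa5*, in the same gene cluster and among the 15 largest increases, at 3.69 and 36.8 RPKM. *Ahsg*, for fetuin A, was at 1361 and 3560 RPKM and *Kng1*, for kininogen, at 321 and 1249 RPKM. *Trf*, for transferrin, was at 6686 and 12825 RPKM and fell just short of the 2-fold size, while *Apoe* (6882 and 6498 RPKM) and *Ttr* (259 and 217 RPKM) were level. Of 30 coagulation and complement genes 12 were higher and none was lower, with a median of 0.77. *Cpb2*, which slows clot lysis, was at 12.8 and 103 RPKM, *Plg*, for plasminogen, at 36.6 and 183 RPKM, and *Serpinc1*, for antithrombin, at 22.4 and 84.0 RPKM. *F2*, for prothrombin, was at 302 and 424 RPKM. *F9*, for another clotting factor, was at 1.43 and 3.36 RPKM, not called on the log2(RPKM + 1) scale (0.84), although its 111 and 257 reads gave a ratio of 2.35 with an exact 95% interval of 1.88 to 2.97 for counting error.

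Metabolic genes of mature hepatocytes were higher in part, and from a low base. Of 31 measured genes of the urea cycle and amino acid breakdown 9 were higher and none was lower (median 0.36). *Bhmt*, which remethylates homocysteine with betaine, had the largest difference, at 6.46 RPKM in iHB and 58.6 RPKM in iHP. *Cps1*, for the first enzyme of the urea cycle, was at 85.0 and 340 RPKM. The perinatal enzyme *Tat*, for tyrosine breakdown, was at 1.35 and 7.05 RPKM, or 91 and 469 reads. The remaining urea cycle genes did not move with *Cps1*, since *Ass1* was at 219 and 197 RPKM, *Asl* at 41.2 and 48.1 RPKM and *Arg1* at 135 and 165 RPKM, and *Otc* was at 0.233 and 0.205 RPKM, below the limit for a measured gene. *Tdo2*, a marker of late hepatocyte maturation, was at 0 and 0.263 RPKM.

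Of 14 measured genes of glucose handling 6 were higher and none was lower (median 0.53). *G6pc*, whose enzyme releases glucose, was at 8.76 RPKM in iHB and 22.5 RPKM in iHP. *Fbp1*, *Gys2* and *Pcx* were also among the 6, with log2 differences from 1.08 to 1.61. *Pck1*, which commits carbon to gluconeogenesis, was at 1.95 and 3.52 RPKM. Glycolysis genes used by most cells gave a contrast, as 0 of 18 was higher or lower and their differences lay between -0.32 and 0.57. Fatty acid oxidation was as flat, with 0 of 22 higher or lower. In cholesterol and fatty acid synthesis *Scd1*, the stearoyl-CoA desaturase, was the only 1 of 26 to be higher, at 22.9 and 53.3 RPKM.

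Of 15 measured genes for bile acids 5 were higher and none was lower (median 0.71, and 7 higher after upper-quartile scaling), and all 15 lay above the median of all genes. Of the 5, *Slc27a5* and *Baat*, which act in the conjugation of bile acids, were at 0.648 and 6.55 RPKM and at 2.76 and 7.86 RPKM. The others were the uptake and export pumps *Slc10a1* (3.86 and 10.2 RPKM) and *Abcb11* (1.08 and 3.45 RPKM), and the bile acid receptor *Nr1h4* (5.11 and 13.5 RPKM). *Cyp7a1*, the rate-limiting enzyme of bile acid synthesis, was below the limit for a measured gene, at 0.320 and 1.30 RPKM. It had 38 and 152 reads, a ratio of 4.07 with an exact 95% interval of 2.83 to 5.97 for counting error only. *Cyp8b1* was at 0.0721 and 0.0733 RPKM. Of 24 xenobiotic genes 7 were higher and 2 were lower (median 0.22). *Sult1a1*, a sulfotransferase, was at 230 and 538 RPKM and *Adh1*, the main alcohol dehydrogenase of liver, at 25.4 and 63.1 RPKM. The other 5, *Cyp3a16*, *Cyp3a11*, *Cyp2d10*, *Cyp2d9* and *Cyp2d26*, belong to families of close copies between which reads may be split, and the first 4 differed more between L1L2_Alb libraries of a condition. Lower were *Cyp1a2*, at 2.84 and 0.718 RPKM, and *Ugt2b36*, at 4.82 and 1.27 RPKM. *Cyp2e1*, abundant in adult liver, was at 0.263 and 0.350 RPKM.

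Hepatic transcription factors lay mostly above the median of all genes, by little. Of 21 measured members 18 lay above it, while *Nr1h4* alone was 2-fold higher and none was 2-fold lower (median 0.27). *Onecut1*, also known as HNF6, was at 10.4 RPKM in iHB and 15.9 RPKM in iHP, *Cebpa* at 23.6 and 24.2 RPKM, and *Foxa2* at 9.96 and 10.4 RPKM. Of the fetal genes 0 of 16 was higher or lower by 2-fold, *Gpc3* was at 202 and 392 RPKM and the imprinted *H19* at 1290 and 1926 RPKM. Of the IGF genes *Igfbp1*, a secreted IGF binding protein of liver, was higher, at 643 and 1875 RPKM, the only 1 of 12. Of the 16 genes of the unfolded protein response *Creld2* was the only 1 to be higher, at 42.5 and 86.4 RPKM, while the median was 0.48 and the chaperone *Hspa5* was at 488 and 759 RPKM.

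**Figure D3:**
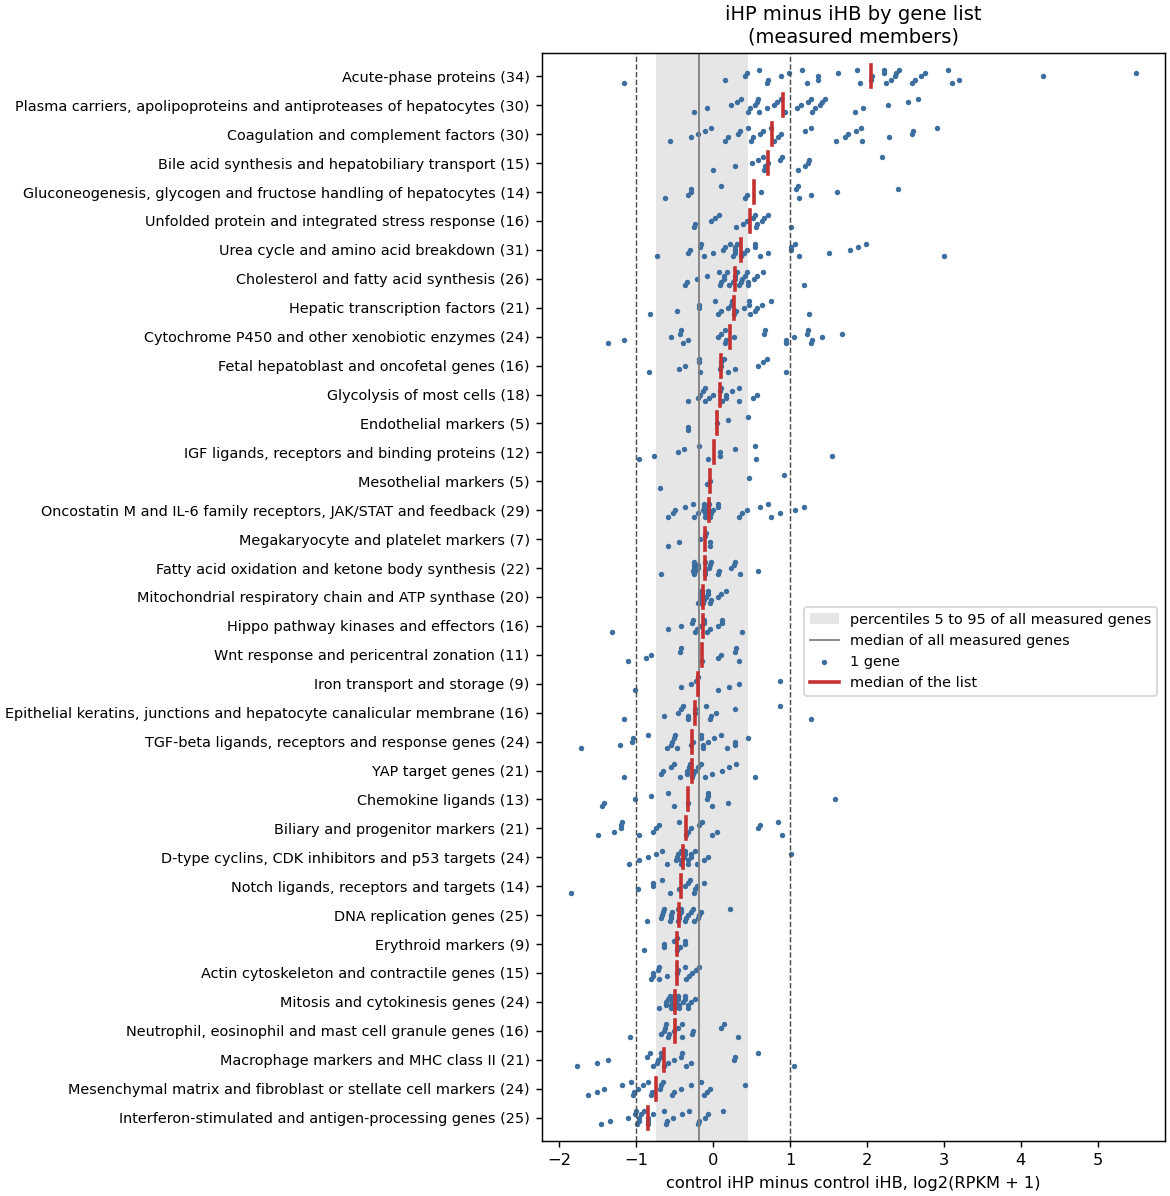
Difference of each measured member (blue points) and median (red bars) of 37 gene lists, as log2(RPKM + 1) in control iHP minus control iHB. The grey band spans percentiles 5 to 95 of all measured genes, -0.74 to 0.46, and only the medians of acute-phase, plasma carrier, coagulation, bile acid, glucose and unfolded protein genes lie to its right and that of interferon genes to its left, with the matrix genes at its edge.

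Epithelial genes shared by progenitors and bile ducts were lower in part. Of 21 measured biliary and progenitor genes none was higher and 5 were lower (median -0.35). After upper-quartile scaling *Spp1* was higher (1.10), 4 genes were lower, since *Epcam* came to -0.99, and the median was -0.20. *Epcam*, the adhesion molecule of hepatoblasts and ducts, was at 55.0 RPKM in iHB and 23.6 RPKM in iHP. *St14*, for the protease matriptase, was at 33.5 and 11.2 RPKM, *Itgb4* at 9.83 and 3.45 RPKM, *Prom1*, for CD133, at 8.93 and 3.32 RPKM, and *Pkhd1*, for the cilium protein fibrocystin, at 3.92 and 1.15 RPKM. All 5 were further apart than in either L1L2_Alb pair. The keratins were not so clear, since *Krt7* was at 400 and 361 RPKM and *Krt19* at 273 and 168 RPKM. *Spp1*, for osteopontin, and *Sox9*, the biliary transcription factor, pointed the other way, at 1706 and 3188 RPKM and at 5.53 and 8.87 RPKM. *Cldn6*, a claudin of tight junctions in early epithelia, was at 105 and 21.2 RPKM, among the 15 largest decreases, and *Cldn3* was at 32 and 13.9 RPKM.

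Of the Notch target genes *Heyl* and, below the limit for a measured gene, *Hey1* were lower in iHP. Notch receptors on hepatoblasts are activated by JAG1 on portal cells and induce HES and HEY repressors in cells that become ducts. *Heyl* was at 3.37 RPKM in iHB and 0.213 RPKM in iHP, 435 and 27 reads, and was the only 1 of 14 measured Notch genes to be lower by 2-fold. *Hes1* was at 15.6 and 7.46 RPKM, 646 and 303 reads, at -0.98 just inside that size. *Hey1*, not measured by the limit, was at 1.61 and 0.178 RPKM, from 101 and 11 reads. The ligand *Jag1* was at 25.4 and 17.0 RPKM and the receptor *Notch2* at 17.3 and 14.6 RPKM. Of the 14 genes 13 lay below the median of all genes. In control iBEC *Hes1* was at 13.4 RPKM, *Heyl* at 0.0398 RPKM and *Jag1* at 5.05 RPKM. L1L2_Alb iHB held *Heyl* at 0.0461 RPKM, *Hey1* at 0.253 RPKM, *Hes1* at 8.84 RPKM and *Jag1* at 15.9 RPKM, all below control iHB.

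Of the YAP target and Hippo pathway genes 1 each was lower, and of the TGF-beta genes 4. YAP and TAZ drive transcription with TEAD factors when the LATS kinases are inactive, and their targets include *Ctgf*, *Cyr61* and *Ankrd1*. Of 21 measured YAP targets none was higher and 1 was lower, *Fjx1*, at 12.2 RPKM in iHB and 4.92 RPKM in iHP, a difference smaller than that between the 2 L1L2_Alb iHP libraries (2.00). *Ctgf* was at 523 and 387 RPKM, *Cyr61* at 194 and 161 RPKM and *Ankrd1* at 270 and 333 RPKM. *Yap1* was at 28.3 and 26.8 RPKM, *Lats1* at 10.6 and 11.2 RPKM, and *Tead2* was the only 1 of 16 pathway genes to be lower, at 23.1 and 8.73 RPKM. Of 24 TGF-beta genes none was higher and 4 were lower (2 after upper-quartile scaling, which also took *Fjx1* under the 2-fold size). *Ltbp2*, a matrix protein of the latent TGF-beta binding family, was at 36.6 and 10.4 RPKM, *Tgfb3* at 36.5 and 17.2 RPKM, *Tgfbi* at 131 and 63.2 RPKM, and *Pmepa1*, a target that restrains SMAD signalling, at 11.4 and 4.37 RPKM. *Tgfbi* was at 17.8 and 6.27 RPKM in the L1L2_Alb iHP pair, which was further apart than the control.

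Matrix genes lay mostly below the median of all genes, 19 of 24 of them. Of 24 measured genes of matrix, fibroblasts and stellate cells none was higher and 7 were lower, with a median of -0.74. After upper-quartile scaling 3 were lower and the median was -0.54. The 22 with recovered reads went from 3.21% to 1.99% of all reads. *Lum*, *Postn*, *Mfap4*, *Fbn1*, *Col6a2*, *Dcn* and *Bgn* were the 7, with log2 differences from -1.63 to -1.03. Only *Mfap4*, a protein of elastic fibres, at 22 RPKM in iHB and 7.08 RPKM in iHP, was further apart than in either L1L2_Alb pair. *Eln*, which codes for elastin, had the second largest decrease of all genes, at 90.3 and 10.7 RPKM, and *Ltbp4*, which helps to assemble elastic fibres, was at 25.3 and 4.79 RPKM. Both were low in L1L2_Alb iHB too, at 1.16 and 2.06 RPKM, so their high level was seen in the control iHB library only. Stellate markers did not decrease alike, with *Des* at 68.7 and 61.8 RPKM and *Pdgfrb* at 20.4 and 9.80 RPKM. Of the contractile genes 0 of 15 was 2-fold lower but 14 lay below the median of all genes, among them *Acta2* at 712 and 439 RPKM. *Fn1*, for fibronectin, which hepatocytes also secrete, was at 2145 and 2859 RPKM. The part of a change in cell mixture in these decreases was not tested.

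Genes of macrophages and granulocytes also lay below the median of all genes in iHP, 17 of 21 and 13 of 16. Of 21 macrophage and MHC class II genes 1 was higher and 3 were lower (median -0.63). Higher was *Cd14*, the endotoxin coreceptor, at 77.9 RPKM in iHB and 162 RPKM in iHP, which hepatocytes also make. Lower were *Marco*, at 364 and 140 RPKM, and the MHC class II genes *Cd74* and *H2-Aa*, at 13.1 and 3.15 RPKM and at 2.99 and 0.401 RPKM. *Csf1r*, which defines macrophages, was at 137 and 79.1 RPKM, and *C1qa* at 211 and 173 RPKM. Of 16 granulocyte genes *Prg2*, of eosinophils, was the only 1 to be lower by 2-fold, at 108 and 50.6 RPKM, which did not hold after upper-quartile scaling, and the median was -0.49. Summed levels were 4350 and 2894 RPKM for the macrophage list and 15112 and 10243 RPKM for the granulocyte list, and *Timd4* and *Clec4f* of Kupffer cells were at or near 0 in both libraries. Whether these cells had a part in the other differences was not tested.

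Interferon genes had the lowest median of the 37 lists. Of 25 measured members none was higher and 5 were lower, with a median of -0.84. After upper-quartile scaling 2 were lower and the median became -0.69. In the values as deposited, 22 lay below the median of all genes. *Isg15*, a ubiquitin-like protein that interferon induces, was at 14.6 RPKM in iHB and 4.73 RPKM in iHP. *Ifit3* was at 6.74 and 2.06 RPKM, *Rsad2*, for viperin, at 6.17 and 2.31 RPKM, *Oas1a* at 9.32 and 4.12 RPKM, and *Irgm1* at 22.3 and 10.6 RPKM, and all 5 were further apart than in either L1L2_Alb pair. *H2-K1*, a class I gene, and *B2m*, the light chain of class I proteins, were at 263 and 251 RPKM and at 631 and 553 RPKM, whereas other class I genes differed in both directions, with *H2-K2* lower and *H2-Q5*, *H2-Q6*, *H2-Q7* and *H2-Q10*, close copies, at least 2-fold higher. The chemokines *Cxcl10*, an interferon target, and *Cx3cl1* were lower, at 24.1 and 8.25 RPKM and at 18.1 and 6.13 RPKM, as was *Ccl5* at 5.49 and 2.22 RPKM. *Ccl5* was at 0 and 2.53 RPKM in the L1L2_Alb iBEC pair, which was further apart than the control. *Cxcl1*, a neutrophil attractant, was higher, at 15.2 and 47.8 RPKM, but was 3.80 apart between the L1L2_Alb iHP libraries.

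Proliferation genes lay mostly below the median of all genes, by little. All 24 measured mitosis genes lay below the median of all genes, between -0.70 and -0.23, with a median of -0.49, and none was 2-fold lower. *Mki67*, the proliferation marker, was at 19.2 RPKM in iHB and 12.8 RPKM in iHP, and *Top2a* at 43.4 and 29.9 RPKM. Of 25 replication genes 22 lay below the median of all genes, and *Mcm2* was at 26.1 and 18.9 RPKM, while *Rrm2* was at 43.2 and 50.7 RPKM. *Ccnd1*, the D-type cyclin, was at 53.4 and 27.0 RPKM, just inside 2-fold. *Cdkn2b*, an inhibitor of its kinase, was lower at 28.7 and 13 RPKM, and the p53 target *Pmaip1* was higher at 39.5 and 81.0 RPKM. Genes of the respiratory chain were level, all 20 between -0.19 and 0.17.

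The smaller lists had few genes past 2-fold. *Gjb2*, for the gap junction protein connexin 26 of hepatocytes, was higher at 13 RPKM in iHB and 33.1 RPKM in iHP, with *Gjb1* at 31.4 and 58.2 RPKM. The Wnt target *Nkd1* was lower at 4.01 and 1.32 RPKM, while *Axin2* was at 1.90 and 1.17 RPKM and *Glul*, a marker of pericentral hepatocytes, at 156 and 193 RPKM. *Bmp6*, which controls hepcidin, was lower at 11.2 and 5.04 RPKM, but was further apart in the L1L2_Alb iHP pair, at 7.09 and 17.0 RPKM. Upper-quartile scaling took *Nkd1*, *Bmp6*, *Cldn3* and *Cdkn2b* under the 2-fold size. Of the erythroid (9), megakaryocyte (7), endothelial (5) and mesothelial (5) genes measured, 0 was 2-fold higher or lower.

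Among the 15 largest increases outside these lists were *Npy*, for a neuropeptide, at 1.74 RPKM in iHB and 27.3 RPKM in iHP, *Tnn*, for the matrix protein tenascin N, at 0.321 and 12.2 RPKM, and *Serpinb2*, an inhibitor of plasminogen activators, at 3.87 and 37.4 RPKM. All 3 were as high or higher in control iBEC, at 60.9, 13.2 and 91.6 RPKM. *Serpina3k* and *Serpina3m*, close copies of *Serpina3n*, were at 45.8 and 698 RPKM and at 84.5 and 711 RPKM, and *Cyp3a41a* and *Cyp3a41b*, near-identical copies, were at 1.76 and 20.5 RPKM and at 1.16 and 21.9 RPKM. Among the 15 largest decreases, *Foxj1*, the master factor of motile cilia, was at 10.5 and 1.33 RPKM, from 770 and 96 reads. *Synb*, for an endogenous retroviral envelope of the placenta, was at 10.4 and 0.964 RPKM, and its neighbour *Gm16677* at 59.7 and 5.83 RPKM, between which reads may be shared. *Tppp3* was at 19.6 and 3.73 RPKM, *Nrep* at 21.1 and 3.38 RPKM, *Anxa13* at 9.48 and 1.30 RPKM, *Coro6* at 15 and 2.32 RPKM and *Ly6f* at 66.0 and 15.3 RPKM. *H2-K2*, an MHC class I gene, was at 19.8 and 3.59 RPKM but 3.09 apart between the L1L2_Alb iHP libraries. The other 3 were unnamed transcripts, *1700011H14Rik*, *1500009L16Rik* and *5730412P04Rik* (which overlaps *Nxf3*), with log2 differences of -2.61, -2.08 and -2.06. L1L2_Alb iHB held *Foxj1* at 0.460 RPKM, *Nrep* at 2.84 RPKM, *Anxa13* at 0.197 RPKM and *Ly6f* at 9.70 RPKM, below control iHP. It held *Tppp3* at 71.5 RPKM and *H2-K2* at 35.7 RPKM, above control iHB. Whether high levels in the 1 control iHB library were particular to that library was not tested.

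Some of the genes that were called lay side by side, and how many runs were to be expected was not worked out. Ordered along the chromosomes by RefSeq, 12130 measured genes gave 20 runs of 3 or more neighbours that were all higher (15 runs) or all lower (5 runs), with 71 genes in all. Most runs were families of related genes, such as *Serpina3i* to *Serpina3n* (5 genes, 2.23 to 3.90), *Ahsg* to *Kng1* (5 genes), *Cyp3a16* to *Cyp3a25* (6 genes), the 3 fibrinogen genes and the 4 metallothioneins. A run of 5 on chromosome 3 was not of 1 family, *Selenbp2*, *Cgn*, *Pogz*, *Psmb4* and *Selenbp1*. *Pogz*, for a chromatin protein, was at 12.3 RPKM in iHB and 337 RPKM in iHP, the second largest increase of all genes. *Cgn*, for the tight junction protein cingulin, was at 77.2 and 614 RPKM, and *Psmb4*, a subunit of the proteasome, at 221 and 1187 RPKM. *Selenbp2* was at 119 and 869 RPKM and *Selenbp1* at 570 and 1495 RPKM, 2 close copies that bind selenium. In the other 7 libraries *Pogz* was between 3.74 and 12.3 RPKM and *Psmb4* between 163 and 286 RPKM, so the level in control iHP stood above all of them. The 12 measured genes on either side differed by -0.46 to 0.32. In L1L2_Alb iHPs none of the 5 was 2-fold higher. Without these 5 genes 254 were higher.

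**Figure D4:**
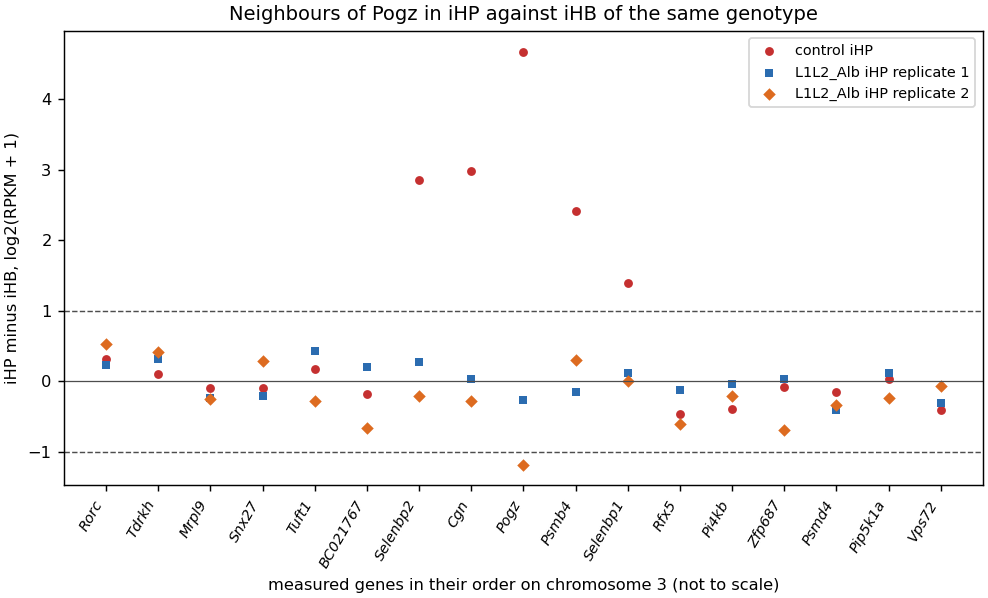
Difference between iHP and iHB of the same genotype, in log2(RPKM + 1), of *Pogz* and the 8 measured genes on either side, in their order on chromosome 3. The 5 genes from *Selenbp2* to *Selenbp1* lie between 1.39 and 4.67 in control iHP (red) and the 12 others between -0.46 and 0.32, while in the L1L2_Alb libraries *Pogz* in replicate 2 is the only point past 2-fold, at -1.18.

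The same step could be followed in libraries that this comparison did not use, those labelled L1L2_Alb, with 1 iHB and 2 iHP libraries. Of the genes deleted in them, *Lats1* was at 13.9 RPKM in iHB and at 22.7 and 7.12 RPKM in iHP, beside 10.6 and 11.2 RPKM in control iHB and iHP, so that 1 of 3 libraries was below the control. *Lats2* was at 19.7, 17.7 and 27.6 RPKM, all above the control levels of 9.23 and 10.1 RPKM. The RPKM of a whole gene need not show the loss of an exon, and which exons were deleted cannot be read from this table, so these cells are called the libraries labelled L1L2_Alb. Of 12840 genes measured there 1.48% were at least 2-fold higher and 3.84% at least 2-fold lower in both iHP libraries. Of the 259 genes higher in control iHP 195 were measured there, and 76 of these (39.0%) were also higher by 2-fold in both. Of the 246 lower genes 193 were measured there, and 56 (29.0%) were lower in both. Both iHP libraries were set against the same iHB library, so they are not independent of each other. Replicate 2 of iHP also held Y-linked RNA that this iHB library lacked. As shares of the L1L2_Alb lists, 76 of 190 higher genes (40.0%) and 56 of 493 lower genes (11.4%) were called in the control.

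Acute-phase genes were in part higher in those cells too. Of the 34 members 27 were lower in L1L2_Alb iHB than in control iHB, and 17 were 2-fold higher in both L1L2_Alb iHP libraries, with medians of 2.16 and 1.61, against 2.05 in the control. *Hpx* was at 37.9 RPKM in L1L2_Alb iHB and at 535 and 508 RPKM in iHP, and *Serpina3n* at 6.55 RPKM and at 180 and 145 RPKM. The levels of both genes in L1L2_Alb iHPs were near those of control iHB (499 and 151 RPKM). *Hp* was nearer to level, at 301 RPKM in iHB and at 576 and 392 RPKM in iHP. *Hamp* began above the control, at 382 RPKM in iHB and at 314 and 405 RPKM in iHP, and *Saa3* was lower in both, at 3516 RPKM and at 837 and 177 RPKM. Some metabolic genes were at lower levels there, as *Cps1* was at 2.24 RPKM and at 21.0 and 6.24 RPKM, and *Bhmt* at 0 RPKM and at 0.157 and 0.159 RPKM. Others were not. *Arg1* was at 501 RPKM in L1L2_Alb iHB and at 122 and 188 RPKM in iHP, beside 135 and 165 RPKM in the control. *Aldh1a1* was at 210 RPKM and at 332 and 496 RPKM, beside 82.6 and 63.0 RPKM. *Epcam*, lower in control iHP, was at 20.8 RPKM in L1L2_Alb iHB and at 35.9 and 39.2 RPKM in iHP. Interferon genes had medians of -0.65 and -0.67, beside -0.84 in the control. Granulocyte genes had medians of -3.18 and -4.74 against -0.49, as *S100a9* was at 1850 RPKM in L1L2_Alb iHB and at 236 and 24.1 RPKM in iHP.

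**Figure D5:**
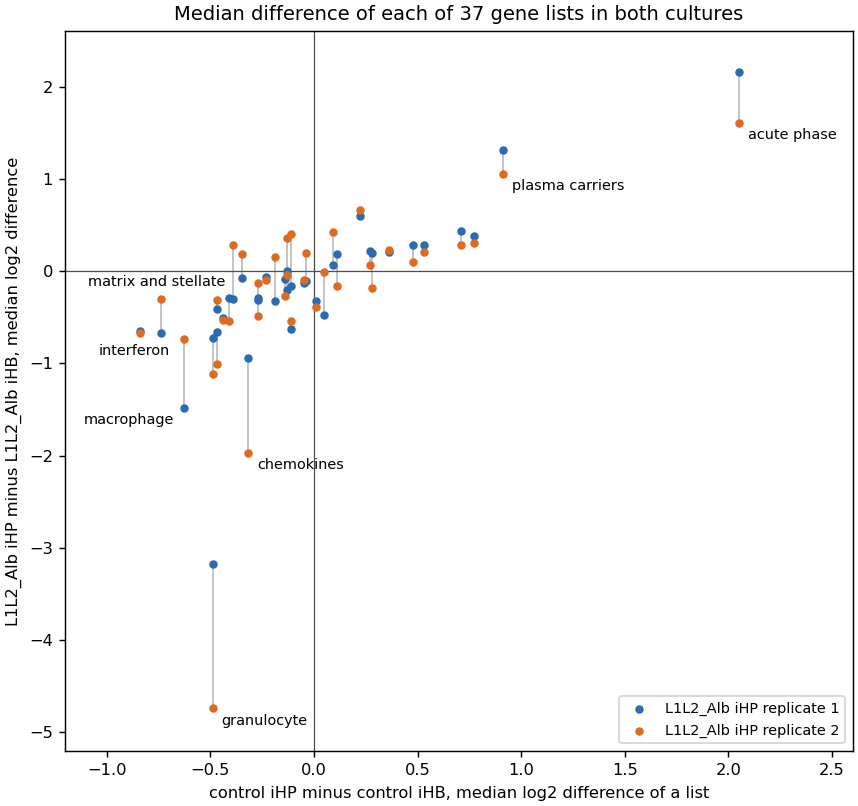
Median log2 difference of each of 37 gene lists in control iHP minus control iHB (x axis) and in each L1L2_Alb iHP library minus L1L2_Alb iHB (y axis, blue and orange, joined by a line for each list). Acute-phase genes lie at the upper right on both axes (2.05 against 2.16 and 1.61) and granulocyte genes lie lowest in the L1L2_Alb libraries (-3.18 and -4.74).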

How the data were processed

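Total RNA of cultured cells was taken with an RNeasy kit and made into libraries with the TruSeq RNA v2 kit. The authors deposited 1 table of RPKM per gene and library. The submitters' processing notes name Bowtie 0.12.2 and mm8, and the counting method and the annotation are not given in the sources used here. That the values are RPKM was checked on 746 short RNA genes of known length, whose values change in steps of 1 read. The reads of a library were taken as the total that a single read of these genes gave most often. In control iHB 22 genes gave the same total, and in control iHP 33. These totals gave whole reads, within 0.02 of a read, for 14440 of 17774 genes (81.2%). These reads were used for depth, shares of reads and exact intervals (95%, counting error only), and no count model was run, with 1 library a side.

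Of 23471 entries, 4 of 2 repeated symbols were left out. Differences are on log2(RPKM + 1), which understates the change of low genes, for genes averaging 1 RPKM or more over both libraries. Gene lists (37, with 703 measured entries), members and comparisons were chosen with earlier results of these data known. In each list, the genes named are the members marked as key, the 3 largest differences each way, genes the study names, and all members past 2-fold where there were 5 or fewer. Of all genes the 15 largest each way are named, without short RNAs. Others (the Y-linked genes, the run on chromosome 3 and the genes under the closing observations) were chosen after their values were seen. The files use mm8, so RefSeq (GRCm38.p6) served for names, gene order and promoter windows only. It is not stated whether libraries came from separate embryos. By *Xist* and *Ddx3y*, L1L2_Alb iHB and L1L2_Alb iHP replicate 2 were of different sex and so did not share an embryo. The steps were tested on simulated data. Python 3.11.15, numpy 2.4.6, pandas 2.3.3, scipy 1.17.1 and matplotlib 3.10.9 were used. Alternatives were another pseudocount, 3 scalings, 3 filters and 3 sizes of call, and, added after seeing the data, calls relative to the median and without the run on chromosome 3. Some genes that this rule names are not reported here.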

Additional observations from a re-analysis of the deposited data

Results flagged for a closer look

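In 4 genes the difference between iHP and iHB was at least 2-fold in the control and at least 2-fold the other way in both L1L2_Alb iHP libraries, and the difference between the cultures was not tested. After upper-quartile scaling 2 of the 4 were under 2-fold in the control, *Olfml3* (-0.84) and *Snord64* (-0.99). These genes were singled out after their values were seen. *Tpbpb*, a trophoblast gene, was 2.24 higher on the log2 scale in control iHP (6.68 RPKM in iHB and 35.2 RPKM in iHP), whereas in L1L2_Alb cells it was at 48.3 RPKM in iHB and at 1.15 and 1.32 RPKM in iHP. Its level was also far apart between the 2 L1L2_Alb iBEC libraries, at 346 and 6.2 RPKM. *Chi3l4*, a chitinase-like gene with close copies, was 1.56 higher in control iHP (32.8 and 98.6 RPKM) and was at 14.1 RPKM in L1L2_Alb iHB and at 0.539 and 0.155 RPKM in iHP. The L1L2_Alb iBEC libraries held it at 0.972 and 64.9 RPKM. *Olfml3*, for a secreted glycoprotein, had a difference of -1.01 in the control (12.1 and 5.49 RPKM) and was at 1.75 RPKM and at 5.59 and 10.2 RPKM in L1L2_Alb cells, with 54.9 and 17.5 RPKM in the iBEC pair, which was further apart than the control. *Snord64*, a small nucleolar RNA, had a difference of -1.13 (4.58 and 1.55 RPKM) and was at 2.27 RPKM and at 7.07 and 6.12 RPKM. It rested on 6 and 2 reads in the control, a ratio of 0.339 with an exact 95% interval of 0.0335 to 1.90, and on 3, 6 and 6 reads in L1L2_Alb cells.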

How the results depend on the processing

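No p-value was computed for the control difference, and counts are those of 2 libraries. The count of 259 higher genes went to 503 at 1.5-fold and to 61 at 4-fold, and that of 246 lower genes to 1292 and 17. The lower genes were also 505 with a pseudocount of 0.1, 150 with upper-quartile scaling, 152 with quantile normalization, 154 with a mean of at least 5 RPKM, and 138 relative to the median of all genes, an alternative chosen after seeing the data. The higher genes made up 51.3% of those called, against 38.6% with the pseudocount of 0.1, 67.9% with upper-quartile scaling, 67.5% with quantile normalization and 70.5% relative to the median. Of genes lower in control iHP, 38.2% were 2-fold lower in the mean of both L1L2_Alb iHP libraries and 32.2% with upper-quartile scaling. Leaving out either library gave 34.1% to 41.1% for lower genes and 33.6% to 50.6% for higher genes (40.9% with both). Of 118 named genes past 2-fold, 0 changed sign under another pseudocount or scaling, and 18 came under 2-fold in at least 1 of them. The medians of 7 of 37 lists did, all within 0.14 of 0. No paired analysis was possible because there was 1 control library a stage.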
